A study of Homo sapiens with 4 samples.

Results

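The glycolysis enzymes described here are 10 genes: HK2, PFKFB3, ALDOA, TPI1, GAPDH, PGK1, ENO1, PKM, LDHA and PDK1. They were chosen by gene symbol and not by a rule on their values, but with earlier results of these data known. Each matched 1 row among the 33540 features counted in Ishikawa cells and the 33538 counted in T-47D cells. Ishikawa is an endometrial adenocarcinoma line and T-47D a luminal breast cancer line, and both respond to estrogen. Each line was grown in RPMI with 10% FBS, moved days before induction to phenol red-free medium with charcoal-stripped serum, and given 10 nM 17β-estradiol (E2) for 2, 4 or 8 h, or DMSO vehicle (0 h). Cells of the 4 time points of a line were labelled with lipid-anchored DNA barcodes (MULTI-seq) and captured together for droplet-based single-cell RNA-seq. The Ishikawa features include 2 reporter transcripts, and GFP alone stood at 31688 to 46740 CPM, UMIs per 1000000 UMIs of the pool, in the 4 Ishikawa pools. Each line and time point was 1 culture, so the design holds no replicate: no value below carries a test, and each interval is an exact 95% interval that covers counting error only.

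Glycolysis splits glucose into pyruvate in the cytosol. Hexokinases such as HK2 trap glucose as glucose-6-phosphate, and PFKFB3 makes fructose-2,6-bisphosphate, the activator of phosphofructokinase. ALDOA cleaves the hexose bisphosphate, TPI1 interconverts the triose phosphates, GAPDH and PGK1 carry out the oxidation and the first ATP-yielding step, and ENO1 and PKM form phosphoenolpyruvate and pyruvate. LDHA reduces pyruvate to lactate, while PDK1 phosphorylates pyruvate dehydrogenase and so limits the entry of pyruvate into mitochondria. Many of these genes are known targets of hypoxia-inducible factors and of MYC, whose binding motifs contain ACGTG and CACGTG, respectively, and estrogen is known to act on glucose uptake and glycolysis in breast and endometrial epithelium.

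Promoter windows are shown for LDHA, PFKFB3 and GAPDH, the member of highest residual noise across T-47D cells, the member with the largest change after E2, and the most abundant member. LDHA lies at chr11:18394563-18408425, PFKFB3 at chr10:6144921-6326637 and GAPDH at chr12:6534517-6538371. Each is the 250 bases before an annotated RefSeq start (GRCh38.p14, plus strand), 5′ to 3′, with matches to ACGTG on either strand in capitals.
LDHA, chr11:18394313-18394562: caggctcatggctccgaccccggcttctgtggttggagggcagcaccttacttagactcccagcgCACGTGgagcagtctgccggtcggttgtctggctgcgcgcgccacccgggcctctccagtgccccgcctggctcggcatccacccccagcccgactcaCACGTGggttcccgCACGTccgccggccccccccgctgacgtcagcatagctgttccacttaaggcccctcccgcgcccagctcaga
PFKFB3, chr10:6202682-6202931: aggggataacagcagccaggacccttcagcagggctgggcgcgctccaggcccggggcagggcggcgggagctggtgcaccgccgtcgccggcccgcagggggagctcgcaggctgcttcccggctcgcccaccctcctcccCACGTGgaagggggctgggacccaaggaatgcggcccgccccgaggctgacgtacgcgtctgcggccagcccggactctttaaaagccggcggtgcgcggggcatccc
GAPDH, chr12:6535014-6535263: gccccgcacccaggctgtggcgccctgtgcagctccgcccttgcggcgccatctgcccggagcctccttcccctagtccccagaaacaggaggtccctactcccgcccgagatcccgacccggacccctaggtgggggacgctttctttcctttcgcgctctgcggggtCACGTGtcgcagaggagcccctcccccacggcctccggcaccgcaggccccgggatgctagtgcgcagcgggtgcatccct
LDHA had matches beginning 185, 184, 87, 86 and 73 bases before the start, of which the first 4 lie in a pair of palindromic CACGTG sites and so overlap. The PFKFB3 and GAPDH windows each had a single CACGTG site, 108 and 81 bases before the start. The windows printed were chosen for their matches: a second LDHA window (chr11:18396101-18396350) and a second PFKFB3 window (chr10:6144671-6144920) had 0 matches to ACGTG. The 10 genes had 17 such windows, and 11 of them, from 8 genes, contained ACGTG; ENO1 and PKM had none. CACGTG was in 5 of 17. Among 35116 windows of the same length before annotated human starts, 18.5% contained ACGTG and 6.35% contained CACGTG. The half-site of the estrogen response element, GGTCA, was in 3 of the 17 windows and in 32.7% of all windows. The full element GGTCANNNTGACC was in 0 of 17 and in 0.0399% of all windows. These are matches of letters only, and no binding was measured here.

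After the limits of the study on UMIs, genes and mitochondrial share, Ishikawa kept 776, 1480, 892 and 1465 cells at 0, 2, 4 and 8 h with 15305038 to 30994433 UMIs per pool, and T-47D kept 1525, 1207, 1341 and 553 cells with 12927799 to 33175309 UMIs. The 2 sets of kept barcodes shared 5. Ishikawa passed a mean of 10 CPM for 8 of 8 endometrial markers and 7 of 11 luminal markers. T-47D passed it for 11 of 11 luminal and 4 of 8 endometrial markers, with PAX8, SOX17 and EMX2 at 0. Both lists hold ESR1, KRT8, KRT18 and EPCAM, so these counts separate the lines only in part. The summed level of 5 leukocyte markers was 1.57 to 2.43 CPM in Ishikawa and 0.155 to 0.754 CPM in T-47D, and 5 fibroblast markers summed to 21.5 to 30.4 CPM and 13.2 to 17.1 CPM. Median mitochondrial shares were 3.96 to 4.27% and 10.0 to 10.4%. Since each pool is a sum over cells, fewer cells with a transcript and fewer transcripts per cell cannot be told apart in CPM, and the shares of cells are given separately.

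**Figure D1:**
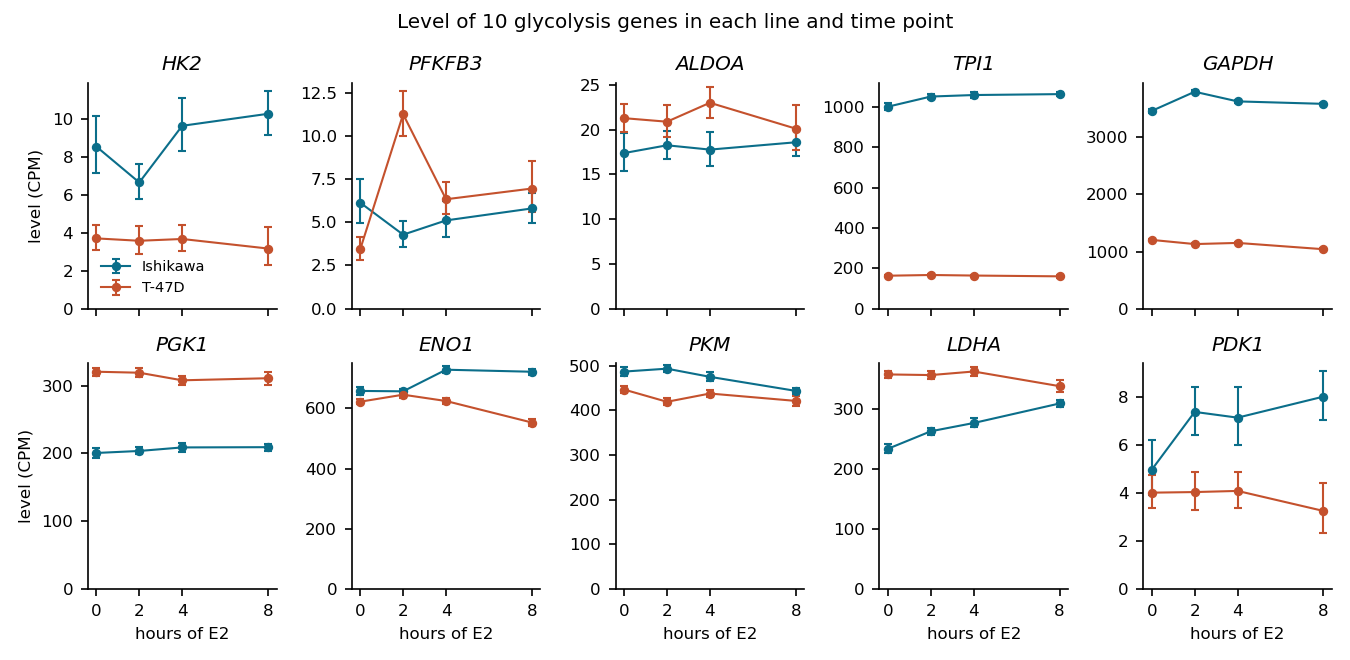
Levels of the 10 glycolysis genes in CPM by hours of E2 (0, 2, 4, 8) in Ishikawa and T-47D, 1 pool per point, with exact 95% Poisson intervals. Each gene has its own panel with its own linear axis from 0. GAPDH stands highest in both lines, TPI1 differs most between lines (1001 CPM against 163 CPM at 0 h), and HK2, PFKFB3 and PDK1 lie near or below 10 CPM.

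Together the 10 genes held 0.608 to 0.651% of all UMIs in Ishikawa and 0.286 to 0.314% in T-47D. Within Ishikawa the order at 0 h was GAPDH (3467 CPM), TPI1 (1001 CPM), ENO1 (658 CPM), PKM (487 CPM), LDHA (233 CPM), PGK1 (201 CPM), ALDOA (17.4 CPM), HK2 (8.56 CPM), PFKFB3 (6.14 CPM) and PDK1 (4.97 CPM). In T-47D it was GAPDH (1204 CPM), ENO1 (622 CPM), PKM (446 CPM), LDHA (357 CPM), PGK1 (321 CPM), TPI1 (163 CPM), ALDOA (21.3 CPM), PDK1 (4.01 CPM), HK2 (3.71 CPM) and PFKFB3 (3.44 CPM). The intervals of neighbours overlapped for HK2 with PFKFB3 and for PFKFB3 with PDK1 in Ishikawa and among PDK1, HK2 and PFKFB3 in T-47D. A UMI stands for a molecule captured at its 3′ end, so levels do not scale with transcript length, but capture differs between genes and the order is one of counted molecules. HK2, PFKFB3 and PDK1 stayed below the mean of 10 CPM used for counts of genes, so 7 of the 10 entered those counts in each line. For ALDOA, 42.8% of its exonic bases are overlapped by a same-strand read-through gene in GENCODE, and GAPDH has 65 named processed pseudogenes. LDHA has 6 named pseudogenes, PKM 5, and TPI1 and ENO1 4 each. How reads shared with these copies were counted could not be checked, so the levels of all these genes are uncertain as absolute values.

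The lines differed most at the triose phosphate steps. TPI1 was 6.15-fold higher in Ishikawa than in T-47D at 0 h (5.96 to 6.34) and GAPDH 2.88-fold (2.84 to 2.92). HK2 was 2.31-fold higher in Ishikawa (1.79 to 2.98). PGK1 and LDHA went the other way, 1.60-fold and 1.53-fold higher in T-47D, whereas ENO1 (1.06-fold) and PKM (1.09-fold) were nearly level between lines. For comparison, 33.0% of 8023 genes with a mean of 10 CPM were at least 1.5-fold higher in Ishikawa and 23.7% at least 1.5-fold lower. The lines are separate libraries and no test of the difference is possible.

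Isozyme use separated the lines sharply for lactate dehydrogenase and hexokinase, and less for the other families. LDHB, the isozyme that favours the oxidation of lactate, stood at 863 to 977 CPM in Ishikawa and at 0.37 to 1.24 CPM in T-47D. Of the UMIs of LDHA and LDHB, LDHA took 21.3, 21.2, 22.5 and 24.0% over the Ishikawa time course. The T-47D shares were 99.7, 99.8, 99.9 and 99.6%. The monocarboxylate transporter SLC16A1 was 104-fold higher in Ishikawa at 0 h, and its low-affinity relative SLC16A3, known for lactate export, 5.02-fold. HK2 was 41.6% of HK1 and HK2 UMIs in Ishikawa at 0 h and 6.32% in T-47D, where HK1, the constitutive hexokinase, was at 54.9 CPM. PDK1 formed 26.2% of the UMIs of the 4 pyruvate dehydrogenase kinases in Ishikawa and 12.7% in T-47D at 0 h. PFKP formed 44.6% and 32.4% of phosphofructokinase UMIs at 0 h in Ishikawa and T-47D, and PFKFB3 42.7% and 25.9% of those of its family. ENO1 was at least 97.0% of enolase UMIs in every pool, so enolase use did not separate the lines.

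After E2, 0 of the 7 members past the minimum moved by 1.5-fold in either direction, at 2, 4 or 8 h, in either line. A change was called on log2 of (CPM + 1) over (CPM at 0 h + 1). Across the 7885 genes tested in Ishikawa, 0.786, 0.634 and 0.812% were at least 1.5-fold higher at 2, 4 and 8 h, and 0.659, 0.621 and 0.469% at least 1.5-fold lower. Across the 7440 genes of T-47D the higher shares were 1.22, 1.33 and 2.34%, and the lower ones 0.417, 0.363 and 0.726%. With shares this small, 0 of 7 is close to what the background would give. The Ishikawa median log2 change of the 7 was 0.07, 0.07 and 0.09 at the successive times (all genes −0.01, −0.01 and 0.00). The T-47D median was −0.01, 0.01 and −0.08 (all genes 0.01, −0.01 and 0.01). In Ishikawa 6 of 7 stood above 0 at every time, where 45.5, 46.2 and 50.3% of all genes did. In T-47D 0 of 7 did at 8 h, where 51.9% of all genes did. The Ishikawa 0 h pool, which all 3 Ishikawa comparisons share, had the highest GFP level (46740 CPM against 31688 to 41036 CPM) and kept 38.2% of its called cells against 52.4 to 55.8% at the later times. With the reporter features left out of the totals, the Ishikawa medians of the members past the minimum were 0.045 to 0.078. In cells under 1% GFP UMIs they were 0.039 to 0.067, and over every barcode called to 1 time point 0.141 to 0.159. The part of the GFP level and of the kept share in the medians was not tested further. The 3 comparisons of a line share its 0 h pool.

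**Figure D2:**
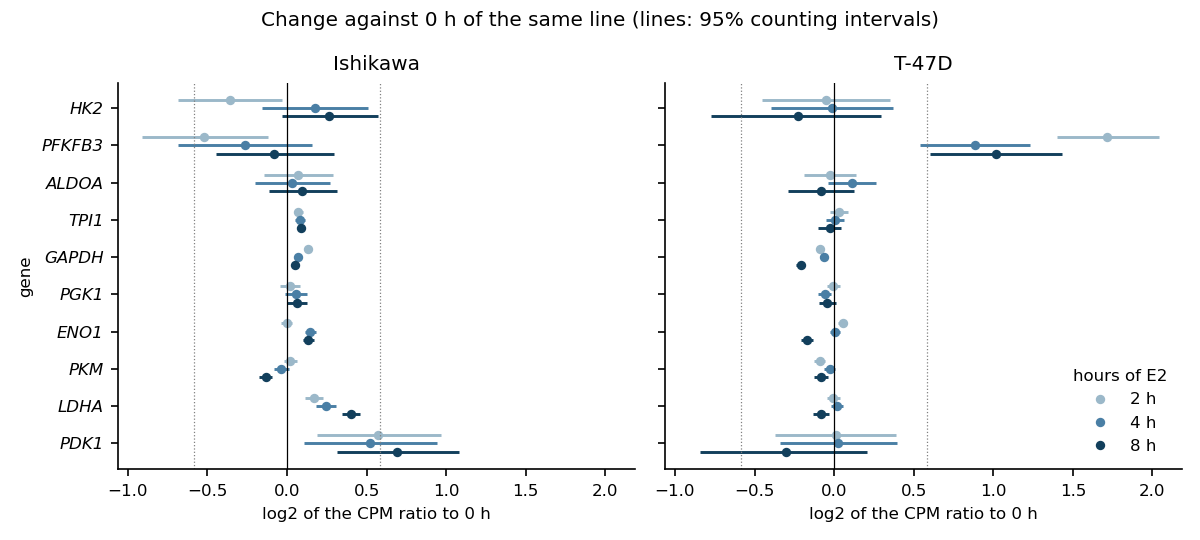
Change of each of the 10 glycolysis genes at 2, 4 and 8 h, as log2 of the CPM ratio to 0 h of the same line, with exact 95% intervals from the counts. PFKFB3 in T-47D lies far above the other points (3.28-fold at 2 h), and LDHA in Ishikawa is higher at each later time (1.12-, 1.18- and 1.32-fold).

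At the entry of the pathway, Ishikawa HK2 stood at 8.56, 6.66, 9.66 and 10.3 CPM at 0, 2, 4 and 8 h, and T-47D HK2 at 3.71, 3.58, 3.68 and 3.17 CPM. Only its 2 h value in Ishikawa had an interval below that of no change (0.778-fold, 0.621 to 0.978). HK1 in T-47D was 54.9, 68.6, 68.8 and 73.8 CPM, 1.34-fold higher at 8 h (1.24 to 1.45). The glucose transporter SLC2A1 was 11.2, 19.1, 14.5 and 14.2 CPM in T-47D, 1.70-fold at 2 h (1.48 to 1.94).

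PFKFB3 showed the largest change of the 10. In T-47D its levels were 3.44, 11.3, 6.34 and 6.96 CPM at 0, 2, 4 and 8 h, from 114, 299, 188 and 90 UMIs. The 2 h ratio was 3.28-fold (2.64 to 4.11), the 4 h ratio 1.85-fold (1.45 to 2.35) and the 8 h ratio 2.03-fold (1.52 to 2.69), so the 2 h value was the highest and the later values stayed above 0 h. In Ishikawa PFKFB3 was 6.14, 4.29, 5.11 and 5.81 CPM, 0.698-fold at 2 h (0.531 to 0.921) with intervals that spanned no change at 4 and 8 h. PFKFB3 is below the minimum of 10 CPM in both lines and was not among the 7 counted above. Within its family of 4 bifunctional enzymes, PFKFB3 went from 25.9% of UMIs at 0 h (21.8 to 30.2) to 52.5% at 2 h (48.3 to 56.6) in T-47D, then 41.1% and 42.1%. In Ishikawa the same share was 42.7, 36.4, 43.2 and 46.0%. Its product activates phosphofructokinase, which has 3 subunit genes. PFKP, the platelet type, was 34.8 to 39.9 CPM in T-47D and 31.8 to 42.0 CPM in Ishikawa, where it was 1.32-fold at 8 h (1.19 to 1.47). PFKL, the liver type, was 44.1 CPM at 0 h and 41.4 CPM at 2 h in T-47D, and PFKM, the muscle type, 28.5 and 28.8 CPM.

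The enzymes between aldolase and pyruvate kinase moved little. In Ishikawa GAPDH was 3467, 3802, 3633 and 3590 CPM, 1.10-fold at 2 h (1.09 to 1.11). TPI1 was 1001, 1052, 1059 and 1064 CPM, ENO1 658, 657, 728 and 722 CPM, and PGK1 201 to 209 CPM. PKM was 0.911-fold at 8 h (0.886 to 0.937) and was the only one of the 7 below its 0 h level then. In T-47D GAPDH was 1204, 1131, 1151 and 1041 CPM, 0.864-fold at 8 h (0.848 to 0.882), and ENO1 was 0.889-fold at 8 h (0.865 to 0.913). ALDOA stayed between 17.4 and 18.6 CPM in Ishikawa and between 20.1 and 23.0 CPM in T-47D. Intervals this narrow reflect the depth of the pools, and how far a second culture would differ was not measured.

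At the pyruvate branch, LDHA in Ishikawa was 233, 262, 276 and 308 CPM, with ratios to 0 h of 1.12 (1.08 to 1.17), 1.18 (1.13 to 1.24) and 1.32 (1.27 to 1.38). At a lower limit of 0.32 on the log2 scale it was the only call among the 7, in that pool alone (1 of 7 higher at 8 h). In Ishikawa that limit was passed by 2.4, 2.56 and 3.89% of all genes upward at the 3 times and by 4.1, 4.63 and 4.21% downward. In T-47D it was passed by 3.41, 4.49 and 7.11% upward and by 1.68, 2.76 and 4.44% downward. In T-47D LDHA was 357, 356, 362 and 337 CPM, 0.95-fold at 8 h (0.91 to 0.98). PDK1 in Ishikawa was 4.97, 7.37, 7.13 and 8.00 CPM from 76 to 248 UMIs, with ratios of 1.48 (1.14 to 1.95), 1.44 (1.08 to 1.92) and 1.61 (1.24 to 2.11). Its part in the kinase family went from 26.2% to 35.2, 36.9 and 39.8%, while PDK2, the broadly expressed kinase, was 11.6 CPM at 0 h and 9.71 CPM at 8 h, PDK3 1.83 and 1.87 CPM, and PDK4 0.523 and 0.516 CPM. In T-47D PDK1 was 4.01, 4.03, 4.08 and 3.25 CPM. SLC16A3 in Ishikawa was 16.3, 31.9, 30.6 and 25.1 CPM, 1.95-, 1.87- and 1.54-fold, and was thus more changed than any of the 7 enzymes.

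Of 34 other genes of glycolysis and sugar or lactate transport, 17 passed the minimum in Ishikawa and SLC16A3 alone was past 1.5-fold at each time. In T-47D 12 passed, and SLC2A1 alone was past 1.5-fold, at 2 h only. Their medians were 0.05, 0.12 and 0.08 on the log2 scale in Ishikawa and −0.04, −0.01 and 0.06 in T-47D. GPI, which isomerises glucose-6-phosphate, was 98.9 CPM at 0 h and 117 CPM at 8 h in Ishikawa. PGAM1, the phosphoglycerate mutase, was 288 to 312 CPM in Ishikawa and 245 to 255 CPM in T-47D. ALDOC, the brain-type aldolase, was 9.93, 7.73, 5.32 and 6.61 CPM in Ishikawa, and ENO2, the neuronal enolase, 15.03, 12.2, 11.9 and 13.1 CPM. Both were thus below their 0 h level at every later time. BPGM, which makes 2,3-bisphosphoglycerate, was lowest of the T-47D list at 8 h (15.4 to 12.1 CPM).

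Of 13 genes of the pyruvate dehydrogenase complex and its regulators, 11 passed in Ishikawa and PDP1, a phosphatase that reactivates the complex, was the only member past 1.5-fold, 0.58-fold at 2 h (18.4 to 10.7 CPM). Its relative PDP2 was 12.9 CPM at 0 h and 18.6 CPM at 8 h. In T-47D 9 passed and 0 were past 1.5-fold, with the E1 subunit PDHB highest at 8 h (59.7 to 82.5 CPM, 1.38-fold). None of the pentose phosphate (7 of 7 and 6 of 7 passed), serine branch (6 of 6 and 5 of 6) or tricarboxylic acid cycle genes (20 of 20 in both) was past 1.5-fold at any time. IDH2, the mitochondrial NADP-dependent isocitrate dehydrogenase, was lowest of the cycle at 8 h in both lines, 0.79-fold in Ishikawa (0.74 to 0.84) and 0.80-fold in T-47D (0.76 to 0.83).

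Other known targets of hypoxia-inducible factors split in T-47D. Of 28 listed genes 20 passed in each line. In T-47D 2, 2 and 3 were past 1.5-fold higher and 1, 3 and 3 past 1.5-fold lower at 2, 4 and 8 h, with medians of −0.05, −0.12 and −0.08. Of all T-47D genes tested, 1.22, 1.33 and 2.34% were past 1.5-fold higher and 0.417, 0.363 and 0.726% lower. The 1 listed gene past 1.5-fold lower at 2 h was HILPDA (−0.61 on the log2 scale). STC2, a secreted glycoprotein, was 27.3, 78.5, 95.5 and 105 CPM, 3.83-fold at 8 h (3.52 to 4.18). KDM4B, a histone demethylase, was 25.1, 50.03, 58.3 and 64.7 CPM. DDIT4, an inhibitor of mTORC1, was 49.8, 33.6, 28.5 and 20.7 CPM, and ANGPTL4, a secreted inhibitor of lipoprotein lipase, 27.9, 20.2, 17.4 and 11.99 CPM. DDIT4 and ANGPTL4 were not past 1.5-fold at 2 h. The 4 genes, picked for the size of their change, thus moved in opposite pairs while LDHA, PGK1 and ENO1 stayed near their 0 h levels. In Ishikawa 0 were past 1.5-fold higher and LOX, the lysyl oxidase, alone was lower, at each time, with medians of 0.00, 0.05 and 0.07. Among 10 genes of the factors and their regulators, of which 6 passed in Ishikawa and 7 in T-47D, SIAH2, a ubiquitin ligase that acts on prolyl hydroxylases, was past 1.5-fold higher at every time in both lines. CITED2, a competitor for the coactivator p300, was past 1.5-fold lower at 2 h in both (183.6 to 114.5 CPM in T-47D and 19.8 to 11.3 CPM in Ishikawa). EPAS1, which encodes HIF-2α, was 54.3 CPM at 0 h and 34.3 CPM at 8 h in T-47D.

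**Figure D3:**
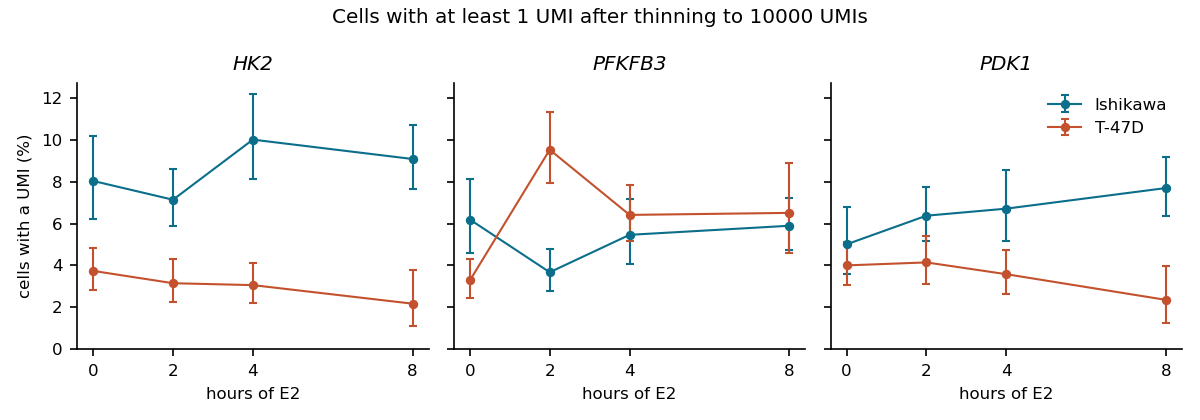
Percent of cells with at least 1 UMI of HK2, PFKFB3 and PDK1 after thinning every cell to 10000 UMIs, at 0, 2, 4 and 8 h in both lines, with exact 95% binomial intervals. In T-47D the share for PFKFB3 goes from 3.28% at 0 h to 9.53% at 2 h. Over the same step HK2 goes from 3.74 to 3.15% and PDK1 from 4.00 to 4.14%.

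To compare shares of cells at equal depth, each cell was thinned to 10000 UMIs, which kept 759 of 776, 1443 of 1480, 879 of 892 and 1442 of 1465 Ishikawa cells and every T-47D cell. PFKFB3 in T-47D was found in 3.28% of vehicle cells (2.44 to 4.30), then in 9.53% (7.93 to 11.3), 6.41% (5.16 to 7.86) and 6.51% (4.60 to 8.90) of cells over the time course. Without thinning the first 3 shares were 6.82, 19.1 and 11.8%. Cells with PFKFB3 held 1.04, 1.14, 1.09 and 1.03 UMIs each, and at counts this low more cells with the transcript and more transcripts per cell cannot be told apart. In Ishikawa the PFKFB3 share was 6.19, 3.67, 5.46 and 5.89%, and that of PDK1 5.01, 6.38, 6.71 and 7.70%. LDHA was found in 84.1, 88.8, 86.8 and 88.5% of Ishikawa cells and in 88.1 to 92.0% of T-47D cells, and TPI1 in 75.0 to 76.9% of T-47D cells. No cell type here lacks these genes, so the share that free RNA alone would give was not measured for them. The near-absent LDHB was found in 1.11% of T-47D cells at 0 h and 0.414% at 2 h.

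Across cells TPI1, GAPDH, PKM, ENO1, LDHA and PGK1 varied together. Over the 45 pairs, the Ishikawa median of the Spearman correlation in thinned cells was 0.020, 0.013, 0.031 and 0.016 from 0 to 8 h. The T-47D median was 0.036, 0.007, 0.060 and 0.045. All pairs of genes with a mean of at least 10 CPM had medians of 0.005 to 0.007 in Ishikawa and near 0.002 in T-47D. As medians over the 4 times, pairs with HK2, PFKFB3 or PDK1 lay between −0.05 and 0.04. Pairs of ALDOA with the other members past the minimum lay between 0.014 and 0.063 in Ishikawa and between 0.007 and 0.085 in T-47D. ALDOA was found in only 15.8 to 17.5% of thinned Ishikawa cells and 18.1 to 19.7% of T-47D cells. At counts this low, and lower still for HK2, PFKFB3 and PDK1, weak co-variation and sparse counting cannot be told apart. Over the 21 pairs of the 7 members past the minimum the Ishikawa values were 0.185, 0.141, 0.141 and 0.174, and those of T-47D 0.177, 0.136, 0.130 and 0.095. Pairs of all genes of at least 100 CPM had medians of 0.017 to 0.030 and 0.016 to 0.018. The 95th percentiles of those pairs were 0.113 to 0.156 and 0.124 to 0.138. In T-47D at 8 h the members' 0.095 was below that percentile (0.138). The highest pair was TPI1 with GAPDH in Ishikawa, at a median over times of 0.48 (0.25 in T-47D). GAPDH with PKM was 0.33 in Ishikawa and 0.30 in T-47D, and GAPDH with LDHA 0.32 and 0.17. Cells of a pool share a library, so these are descriptions over cells of 1 culture.

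**Figure D4:**
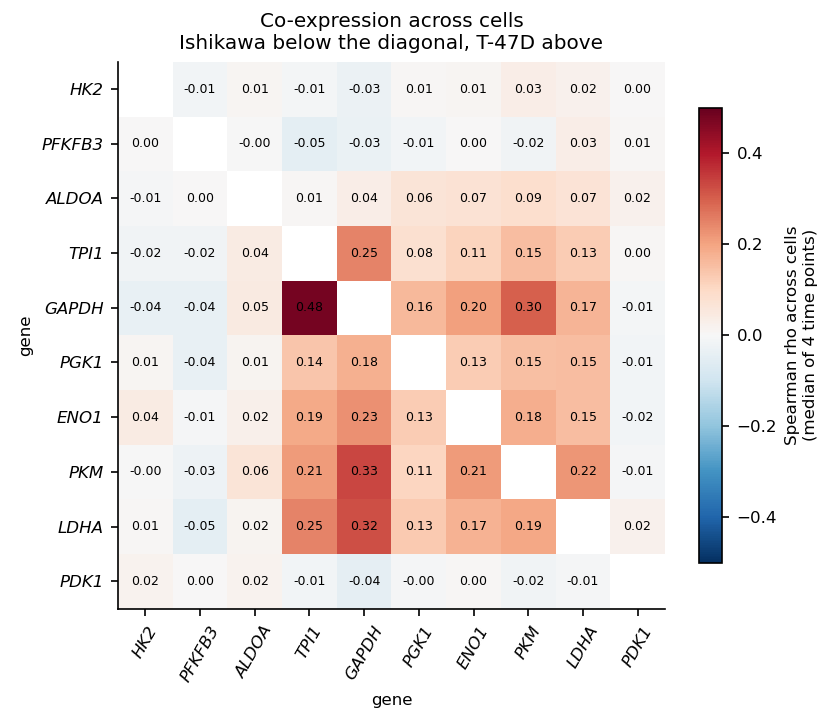
Median Spearman correlation over the 4 time points for each pair of the 10 glycolysis genes, over thinned cells, with Ishikawa below the diagonal and T-47D above it. TPI1, GAPDH, PKM, ENO1, LDHA and PGK1 form the positive block (TPI1 with GAPDH 0.48 and 0.25). Pairs of ALDOA with these genes are 0.014 to 0.063 in Ishikawa and 0.007 to 0.085 in T-47D, and pairs with HK2, PFKFB3 or PDK1 stay near 0.

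The composition of the libraries moved with these correlations. In Ishikawa the summed UMIs of the 10 genes ran against the GFP share of the cell, with a correlation of −0.480, −0.397, −0.381 and −0.452. When the reporter UMIs were removed before thinning, the 21-pair medians of Ishikawa were 0.0921 to 0.107, and in cells under 1% GFP UMIs they were 0.0474 to 0.0874. The median cell held 0.514 to 0.697% GFP UMIs. In T-47D the sum ran against the mitochondrial share, at −0.506 at 0 h, and with mitochondrial UMIs removed the 21-pair medians were 0.0976 to 0.124. The genes most like the sum in Ishikawa, of 2731 genes of at least 50 CPM, were TUBA1B (0.498), ACTB (0.463), RPL7A (0.462), RPL8 (0.458), RPS3 (0.444) and RPS15 (0.442), and the least like were THUMPD3-AS1 (−0.341), KMT2E-AS1 (−0.326) and SKIL (−0.317). In T-47D, of 2675 genes, they were ACTB (0.478), MYL6 (0.447), S100A10 (0.408), PRDX1 (0.397), S100A11 (0.385) and ATP5F1E (0.385), and the least like were the mitochondrial MT-ATP6 (−0.511), MT-CO3 (−0.476) and MT-ND5 (−0.471). ACTB, which encodes β-actin, was in both lists, and 4 of the 6 Ishikawa genes encode ribosomal proteins. The summed ribosomal protein UMIs ran with the sum of the 10 genes at 0.316 to 0.461 in Ishikawa and 0.248 to 0.313 in T-47D. PGAM1, the glycolytic gene between PGK1 and ENO1, stood at 0.255 in Ishikawa and 0.271 in T-47D, against medians of 0.038 and 0.037 over all candidates. GPI, also glycolytic, stood at 0.121 and 0.041. Outside glycolysis, TKT of the pentose phosphate pathway stood at 0.309 and 0.119, and MDH2 of the tricarboxylic acid cycle at 0.153 and 0.259. The likeness was thus not particular to glycolytic genes.

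The spread of LDHA across cells set T-47D apart. Its coefficient of variation at 0 h was 0.943, and its residual noise, given its mean, lay at the 96.6th percentile of genes in its expression bin, against the 73.2nd in Ishikawa. GAPDH was at the 91.9th percentile in T-47D and the 83.7th in Ishikawa, PKM at the 86.9th and 73.1st, and ENO1 at the 67.3rd and 30.2nd. The variance of thinned LDHA UMIs over their mean was 3.67, 4.49, 3.72 and 2.86 in the T-47D pools and at most 1.68 in the Ishikawa pools. A small set of T-47D cells held very high LDHA: 20 of 1525 at 0 h had at least 16 of 10000 UMIs (1.31%, 0.803 to 2.02), then 18 of 1207 (1.49%), 19 of 1341 (1.42%) and 6 of 553 (1.08%), up to 68 UMIs. In Ishikawa 0 cells reached 16, and 3 counts of the total would be 0.395, 0.208, 0.341 and 0.208%. The exact 95% intervals of these zero shares reach 0.485, 0.255, 0.419 and 0.255%, and the T-47D interval at 8 h starts at 0.399%. The limit of 16 lies just above the Ishikawa maximum of 15 UMIs (8 h). The zeros therefore say nothing beyond that maximum. The limit is a place on a range and not a boundary of a cell type: 34 T-47D cells at 0 h held 12 to 15 UMIs and 12 held 16 to 19. These limits and the genes compared next were chosen after their values were seen.

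**Figure D5:**
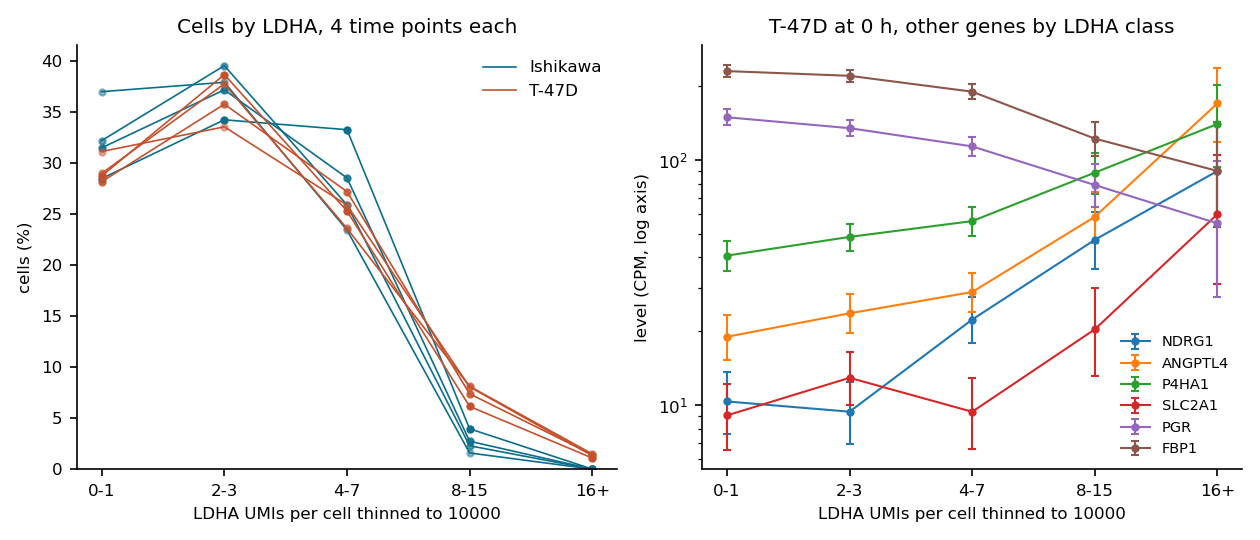
Left, percent of cells by class of LDHA UMIs per thinned cell, 1 line per time point. Right, CPM (log axis) of 6 genes by LDHA class in T-47D at 0 h, with exact 95% Poisson intervals. T-47D has a tail of cells at 16 or more UMIs (20 of 1525 at 0 h) that Ishikawa lacks, and ANGPTL4 and NDRG1 are higher in the upper classes while PGR and FBP1 are lower.

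The T-47D cells of high LDHA carried more of several other hypoxia targets. In the 143 cells with at least 8 LDHA UMIs at 0 h, against cells with 0 or 1, NDRG1, a stress-responsive differentiation gene, was 53.2 CPM against 10.3 CPM, 5.15-fold (3.55 to 7.54), and 4.64- to 19.6-fold over the 4 times. ANGPTL4 was 74.1 CPM against 18.95 CPM, 3.91-fold (2.93 to 5.24), P4HA1, a collagen prolyl hydroxylase, 2.36-fold, and SPINK13, a protease inhibitor gene, 6.42-fold (243 CPM against 37.9 CPM). SLC2A1 was 2.86-fold at 0 h but 1.48-fold at 2 h (0.925 to 2.33) and 1.66-fold at 8 h (0.707 to 3.59), with intervals that span no difference. PKM was 1.33- to 1.89-fold and GAPDH 1.36- to 1.66-fold over the 4 times. Genes lower in high-LDHA cells were PGR, the progesterone receptor (75.5 CPM against 149 CPM, 0.507-fold), and FBP1, the gluconeogenic fructose-1,6-bisphosphatase (118 CPM against 230 CPM, 0.511-fold). Of genes of dividing cells, TOP2A was 0.777- to 1.97-fold over the 4 times. The mitotic genes CCNB1 (1.26- to 2.51-fold) and CDC20 (1.10- to 3.43-fold) had ratios above 1 at every time. The intervals of CCNB1 at 0 h (0.999 to 1.57) and 8 h (0.928 to 2.14) and of CDC20 at 8 h (0.321 to 3.09) spanned no difference. The part of cell division in these differences was not tested. From the class of 0 or 1 to that of 16 or more LDHA UMIs at 0 h (20 cells), ANGPTL4 went from 18.95 to 170 CPM and FBP1 from 230 to 90 CPM. In the top class ANGPTL4 rests on 34, 9, 20 and 5 UMIs at the 4 times, and at 2 h its 50 CPM (22.9 to 94.9) was no higher than the 54.1 CPM of the class of 8 to 15. In Ishikawa the contrast of at least 8 against 0 or 1 LDHA UMIs gave P4HA1 at 2.42-, 1.73-, 1.23- and 1.64-fold. Only its 4 h interval (0.721 to 1.97) spanned no difference. PGK1 was 1.14- to 1.99-fold there and SLC2A1 0.825- to 1.30-fold, while NDRG1 and ANGPTL4 were too low to compare. The same ratio over all genes was not computed in either line.

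Of the 20 hypoxia targets past the minimum in T-47D, 18 had a positive correlation with LDHA across cells (median 0.0524), where 49.4% of all genes did (median −0.00063), and 4 of the 20 exceeded 0.1. Other lists leaned the same way: 11 of 12 other glycolysis and transport genes (median 0.0439) and 6 of 6 pentose phosphate genes (median 0.0285) were positive in T-47D. In Ishikawa 8 of 20 hypoxia targets were positive, with a median of −0.00924 against 0.0034 for all genes, of which 53.3% were positive. The other lists leaned positive in Ishikawa too. There 12 of 17 other glycolysis and transport genes (median 0.051) and 7 of 7 pentose phosphate genes (median 0.099) were positive. The highest hypoxia target in T-47D was NDRG1 (0.195), and among all genes ACTB (0.259), KRT19 (0.221) and PKM (0.221) led. In Ishikawa LDHA ran with GAPDH (0.321), RPL7A (0.319), PTMA (0.304), PRDX1 (0.291) and LDHB (0.283), and lowest were ATF3 (−0.234), THUMPD3-AS1 (−0.231), PPP1R15A (−0.222), KMT2E-AS1 (−0.219), ANKRD1 (−0.215) and GADD45B (−0.214). THUMPD3-AS1 and KMT2E-AS1 were also the genes least like the member sum, which ran against the GFP share. With mitochondrial UMIs removed, the T-47D correlations of LDHA with NDRG1, ANGPTL4, PGR and FBP1 kept their signs at every time. LDHA itself ran against MT-CO3 in T-47D (−0.275), and the part of the mitochondrial share in these relations was not tested further.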

How the data were processed

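Single-cell RNA-seq of Ishikawa and T-47D cells was analysed from the matrices of UMI counts per gene and barcode that the authors deposited, made per the submitters' processing notes with Cell Ranger 3.1.0 on hg38, without normalization. Time points came from the deposited MULTI-seq calls, and doublet calls (1906 and 1442) and barcodes without a call were left out, since no time point can be given to them. Following the study's limits, cells with 8500 to 35000 UMIs, 2700 to 6000 genes and at most 7% mitochondrial UMIs were kept in Ishikawa (4613 of 9077 called), and 7500 to 40000 UMIs, 1500 to 6000 genes and at most 20% in T-47D (4626 of 4626). UMIs were summed per line and time point and given as CPM with exact Poisson intervals; ratios of CPM have exact conditional binomial intervals. Calls used log2 of (CPM + 1), a mean of at least 10 CPM and 1.5-fold. No test across samples was possible with 1 culture per time point. Shares of cells (Clopper-Pearson intervals) and Spearman correlations used cells thinned at random to 10000 UMIs. Noise was the residual of a smooth fit (mgcv 1.9.3) of the coefficient of variation on the mean. TMM factors came from edgeR 4.0.16. Python 3.11.15, numpy 2.4.6, scipy 1.17.1, pandas 2.3.3 and R 4.3.3 were used, and the fold changes, their intervals, the thinning and the correlations were tested on simulated data. The genes named are the 10 members, 15 fixed relatives, genes of the fixed lists past 1.5-fold (at most 4 per list and line, with the highest and lowest at 8 h) and the 6 highest and 3 lowest partners of the member sum; the LDHA partners were chosen after their values were seen. The members and lists were chosen with earlier results of these data known.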

Additional observations from a re-analysis of the deposited data

Results flagged for a closer look

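PFKFB3 at 2 h of E2 went in opposite directions in the 2 lines, 0.698-fold in Ishikawa (0.531 to 0.921) and 3.28-fold in T-47D (2.64 to 4.11). Each value is a ratio of CPM within a line from 1 culture per time point, and no test of that difference is possible.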

How the results depend on the processing

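Counts of members past 1.5-fold were 0 of 7 in each direction. A higher limit or minimum can only keep a count of 0, and the set of every called barcode is the same cells in T-47D, so these alternatives say nothing of stability. Of the others, 5 counts differed, each by 1 gene: with no minimum level, 1 member was higher in Ishikawa at 8 h (PDK1) and 1 in T-47D at 2, 4 and 8 h (PFKFB3), and at a limit of 0.32 on the log2 scale 1 was higher in Ishikawa at 8 h (LDHA). The median log2 change of the members stayed above 0 in Ishikawa, and in T-47D it stayed below 0 at 2 and 8 h but ran from −0.03 to 0.02 at 4 h. The median over the 45 pairs stayed above 0, at 0.00770 to 0.0738, while 27 to 37 of the single pairs were above 0 in each pool. Over the alternatives the log2 change of PFKFB3 in T-47D at 2 h ran from 0.95 to 1.70 and in Ishikawa from −0.58 to −0.26, that of LDHA in Ishikawa at 8 h from 0.39 to 0.49 and that of PDK1 in Ishikawa at 8 h from 0.22 to 0.62. Of 480 alternative values of the changes of single members, 60 lay outside the counting interval of the main value. Among these were 15 Ishikawa values with every called barcode and 14 in Ishikawa cells without a UMI of TOP2A or MKI67. The 21-pair median of Ishikawa was 0.0474 to 0.0874 in cells under 1% GFP UMIs and 0.194 to 0.265 without thinning. T-47D cells with at least 16 LDHA UMIs were 0.852 to 1.92% at 0 h. Mitochondrial removal, the 21 pairs and the LDHA alternatives were added after seeing the data. No paired analysis was possible because each line and time point is 1 culture. Counting depth limits HK2, PFKFB3 and PDK1 most: at 8 h in T-47D they rest on 41, 90 and 42 UMIs.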
